A study of Mus musculus with 63 samples.

Results

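The clone gap was compared between heterotypic tumours of the small intestine labelled SI10 and those labelled SI20. A heterotypic tumour holds glands of at least 2 reporter colours, or coloured glands beside unlabelled ones. Its gap is the log2 level of a gene in the larger (major) clone minus that in the smaller (minor) clone of the same tumour. Major and minor clones are those of the study's source data. Tumours were taken where both clones carried the same segment label, which gave 7 SI10 and 10 SI20 tumours and 34 of the 63 libraries of the series. Of the 20 divided tumours, 3 were left out of the main comparison: 2 labelled SI30, and tumour 22 of the female mouse, whose major clone was labelled SI20 and minor clone SI10. The question was whether major and minor clones differ in the same genes, and by as much, in both segments.

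All tumours came from 2 C57BL/6 mice, 1 female and 1 male, of the genotype Apchet with the R26R-Confetti reporter and Villin-creERT2. Villin-creERT2 drives the recombinase in the whole intestinal epithelium, so that the SI10 and SI20 tumours share the loss of 1 *Apc* allele, the reporter and the mutagen. Animals older than 8 weeks received 4 mg tamoxifen and, 10 days later, 200 mg per kg of ENU, an alkylating mutagen. The female mouse gave 3 SI10 and 4 SI20 tumours and the male mouse 4 and 6. Mouse and sex coincide in this design and cannot be told apart. The labels do not say what the numbers 10 and 20 measure.

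The intestinal epithelium renews from *Lgr5*-expressing stem cells at the crypt base, which depend on WNT signals. Their daughters become absorptive enterocytes when Notch signalling is active, or secretory cells (goblet, Paneth, enteroendocrine and, by some routes, tuft cells) when *Atoh1*, the secretory master regulator, is left free. Mutation of *Apc* keeps WNT signalling on, and adenomas of the small intestine still hold variable numbers of these differentiated cells.

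Values are normalised counts, and levels below are given on that scale. They summed to between 26140200 and 33110000 per library, and the reads behind a library, estimated from the lowest values, ranged from 13166700 to 52152300 (median 34829700). The gap in estimated reads had a mean of 0.25 (SD 0.52, n = 7) on the log2 scale in SI10 and -0.01 (SD 0.65, n = 10) in SI20 tumours, and the segments did not differ detectably in it (exact two-sided permutation test, p = 0.424). The segment labels were checked against *Osr2*, a transcription factor gene listed here with distal genes. Its mean over both clones was 3.20 to 90.7 (median 16.3) in SI10 and 210.1 to 778 (median 552) in SI20 tumours, with no overlap. The other genes looked at overlapped between the segments. *Lct* and *Fabp1*, listed here as proximal, had higher medians in SI20 (1586 in SI10 and 7142 in SI20 for *Lct*, 28714 and 38833 for *Fabp1*). *Onecut2*, also listed as proximal, had 2992 and 2649, and *Slc10a2*, listed as distal, 147 and 220. *Gata4*, which marks the proximal and middle small intestine, was abundant in both (median 5143 in SI10 and 5686 in SI20), while *Fabp6*, an ileal bile acid carrier, was at most 4.96 in SI10 and 12.9 in SI20. Epithelial *Epcam* and *Vil1* had tumour means of at least 37579 and 17123 normalised counts.

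In SI10 tumours 1 gene passed the test, *Klk1*, which encodes tissue kallikrein, a secreted serine protease. Its level in minor clones ran from 122.7 to 1425 (median 899.6) and in major clones from 545.9 to 2340 (median 1915). The major clone was higher in 7 of 7 tumours, with gaps between 0.69 and 2.14. *Klk1* rose in major clones by 1.27 on the log2 scale (SE 0.18), or 2.41-fold (limma across 16436 genes with tumour as a block, adjusted p = 0.0125). It lies at chr7:43874725-43879048 on the plus strand of GRCm39. That 1 call was 0.00608% of the genes tested. In SI20 tumours the *Klk1* level was 800.2 to 2114 (median 1577) in minor and 1492 to 2551 (median 1843) in major clones, with a gap of 0.40 (SE 0.15, adjusted p = 0.182) that was above 0 in 8 of 10 tumours. The lowest value was thus in an SI10 minor clone, and the SI10 minor clones lay below the SI20 major clones but overlapped with the SI20 minor clones. The SI10 major clones overlapped with both clones of SI20 and reached lower, to 545.9. The *Klk1* gap in SI10 passed in 26 of 35 alternatives (adjusted p from 0.00193 to 1), and not without tumour 20 of the female or tumour 19, 20 or 22 of the male mouse. The gap also did not pass in either mouse alone, without the block, with SI10 fitted alone or with *Rn18s* in the model. *Klk1* has close paralogues, the *Klk1b* genes, none of which reached a mean of 10, and reads shared with them are uncertain.

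The next genes by p in SI10 were *Spink4*, *Hpd* and *Reg4*, none of which passed. *Spink4*, a protease inhibitor of goblet cells, was at 774.9 to 8237 (median 5778) in minor and 3278 to 12671 (median 10050) in major clones of SI10 tumours, and higher in the major clone of 7 of 7. Its gap was 1.08 (SE 0.18, adjusted p = 0.0583) in SI10 and 0.32 (SE 0.15, adjusted p = 0.267) in SI20. *Reg4*, a secreted lectin of enteroendocrine and goblet cells, had levels of 524.7 to 2799 (median 1009) in minor and 1588 to 5476 (median 2278) in major clones of SI10 tumours. Its gap was 1.23 (SE 0.22, adjusted p = 0.109) and above 0 in 7 of 7 SI10 tumours, against 0.45 (adjusted p = 0.227) and 7 of 10 in SI20. *Hpd*, an enzyme of tyrosine breakdown named here after its values were seen, was higher in the major clone of all 17 tumours of both segments, by 0.95 (adjusted p = 0.0978) in SI10 and 0.68 (adjusted p = 0.0745) in SI20. At an unadjusted p under 0.05, 654 genes (3.98%) were above 0 and 241 (1.47%) below 0 in SI10.

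**Figure D1:**
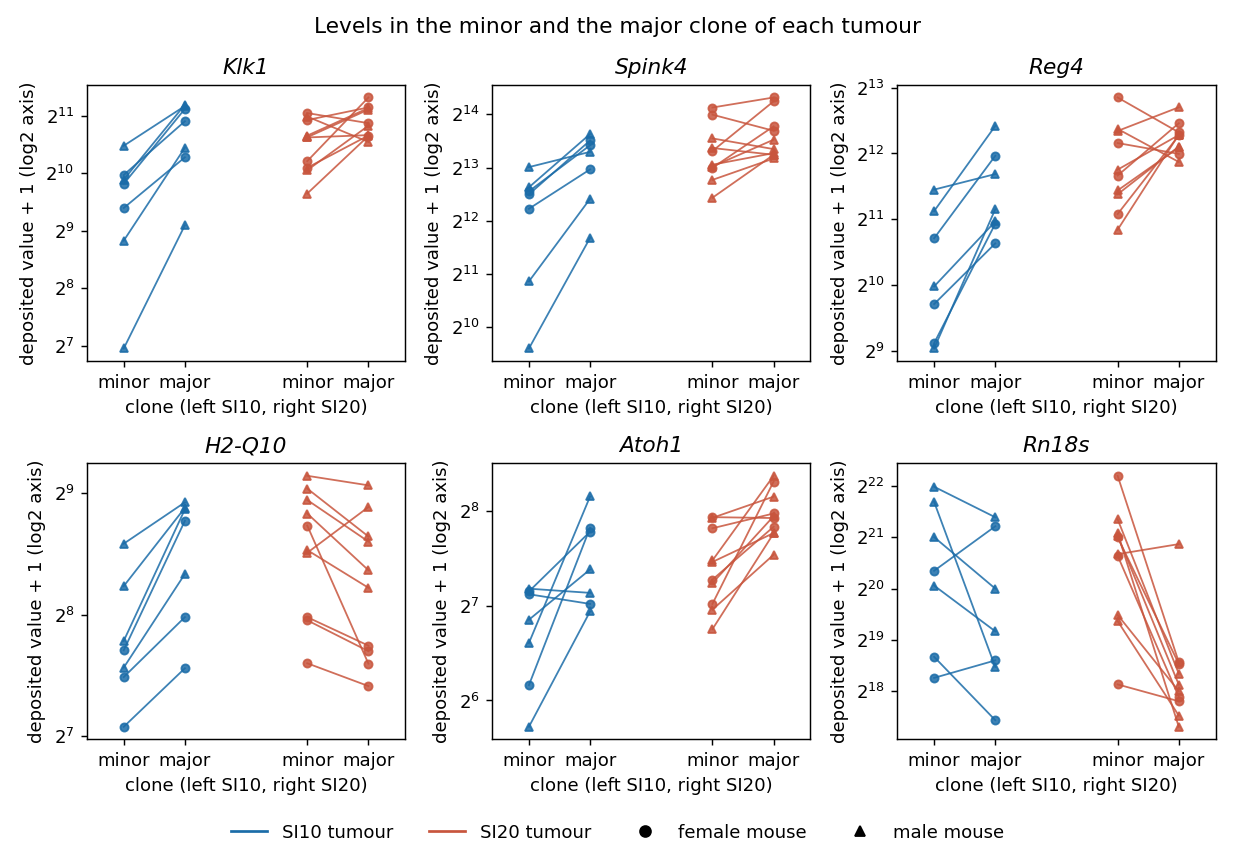
Level (normalised count + 1, log2 axis) of 6 genes in the minor and the major clone, with 1 line per tumour, blue for SI10 and red for SI20, circles for the female and triangles for the male mouse. *Klk1*, *Spink4* and *Reg4* slope up in 7 of 7 SI10 tumours, *H2-Q10* slopes up in 7 of 7 SI10 and down in 9 of 10 SI20 tumours, and *Rn18s* slopes down in 9 of 10 SI20 tumours.

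In SI20 tumours 10 genes passed (0.0608%), 2 higher and 8 lower in major clones. This split turned with the samples: 8 were higher and 1 lower in the male mouse alone, and 36 and 19 without tumour 27 of the female mouse, while without tumour 24 or 26 of the female mouse it was 2 and 2. The higher ones were *Sec31a*, a coat protein of vesicles that leave the endoplasmic reticulum, and *Mgat5*, an enzyme that branches N-glycans. *Sec31a* levels were 5204 to 8015 (median 6741) in minor and 7403 to 11600 (median 8752) in major clones of SI20 tumours, and it rose by 0.42 (SE 0.06, adjusted p = 0.00869), in 10 of 10 tumours. *Mgat5* levels were 1156 to 2907 (median 1696) in minor and 1704 to 3011 (median 2507) in major clones, and it rose by 0.50 (SE 0.08, adjusted p = 0.0130), again in 10 of 10. The ranges of both genes overlapped between classes, and the shift was seen within tumours. In SI10 tumours their gaps were 0.10 (SE 0.07) for *Sec31a* and 0.24 (SE 0.09) for *Mgat5*, above 0 in 4 and 6 of 7 tumours.

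The 8 genes that fell in SI20 major clones included *Rn18s*, the 18S ribosomal RNA, and *Mir6236*, annotated as a microRNA. *Rn18s* was at 286006 to 4830940 (median 1885700) in minor and 161058 to 1914450 (median 273095) in major clones of SI20 tumours, lower in 9 of 10. It fell by 2.21 (SE 0.39, adjusted p = 0.0359) and *Mir6236* fell by 2.44 (SE 0.31, adjusted p = 0.00287), the latter in 10 of 10 tumours. The others were *Lars2*, the mitochondrial leucyl-tRNA synthetase (fell by 2.12), *Gm15564* (fell by 2.09), *Gm12895* (fell by 1.93), *AA474408*, *2700046A07Rik* (fell by 1.44) and a gene without a symbol (fell by 2.33). All 8 were also lower in SI10 major clones, with gaps from -0.43 to -1.03, none past the adjusted threshold. In SI10 the gaps of *Lars2* (-0.85) and *Gm15564* (-0.92) were close to that of *Rn18s* (-0.82), as they were in SI20. Whether the 8 falls are separate signals was not tested beyond the model with *Rn18s* below. The median share of *Rn18s* in a library was 6.19% for minor and 0.931% for major clones of SI20 tumours, and 4.16% and 1.79% for those of SI10. Its gap was -0.82 (SD 1.31, n = 7) in SI10 and -2.21 (SD 1.33, n = 10) in SI20, a difference that did not pass (exact two-sided permutation test over tumours, p = 0.0530). Its p was 0.0131 without SI10 tumour 22 of the male mouse, 0.0282 without SI20 tumour 27 of the female and 0.0181 without SI20 tumour 27 of the male mouse.

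With the *Rn18s* level of each library added to the model, no gene passed in either segment. The *Klk1* gap in SI10 was then 1.26 (adjusted p = 0.0817) and that of *Sec31a* in SI20 0.44 and did not pass, while the *Lars2* gap in SI20 moved from -2.12 to 0.02. *Rn18s* was itself called in SI20, so this covariate partly overlaps with the clone term. The loss of calls cannot separate a part of *Rn18s* in the gaps from that overlap. The part of *Rn18s* in the other gaps was not tested beyond this. At an unadjusted p under 0.05, 1460 genes (8.88%) were above 0 and 1465 (8.91%) below 0 in SI20. These splits moved with the scaling: when each library was scaled to the same sum without *Rn18s*, 27.4% of such genes were above 0 in SI20, against 49.9%, and 61.0% in SI10, against 73.1%.

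No gene passed the test of the difference itself, the gap in SI10 minus the gap in SI20 (0%, limma, smallest adjusted p = 0.342). At an unadjusted p under 0.05 there were 388 genes (2.36%) with a larger gap in SI10 and 270 (1.64%) with a larger gap in SI20. *Klk1*, the gene called in SI10, differed by 0.86 (SE 0.23, unadjusted p = 0.00129) and *Sec31a*, called in SI20, by -0.33 (SE 0.09, unadjusted p = 0.00236). A call in one segment alone was therefore not shown to be a difference between them. The median standard error of a gene's difference was 0.23, so that small differences were out of reach with these 17 tumours.

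The genes with the smallest unadjusted p each way are given as a description, since none passed. *H2-Q10*, a class I histocompatibility gene, led those with the larger gap in SI10. Its level was 134.2 to 382.7 (median 208) in minor and 187.7 to 484.6 (median 436) in major clones of SI10 tumours, and 193.1 to 564 (median 397) in minor and 169.5 to 534 (median 313) in major clones of SI20 tumours. The gap was 0.70 (SE 0.14) in SI10, above 0 in 7 of 7 tumours, and -0.30 (SE 0.11) in SI20, above 0 in 1 of 10. The difference of 0.999 (SE 0.18, limma unadjusted p = 2.08e-05) had the same sign in each mouse: the mean gap was 0.68 and 0.71 in SI10, and -0.45 and -0.20 in SI20, for the female and the male mouse. The gene was picked by its p in the same tumours, so this is no separate support. *H2-Q10* (chr17:35780959-35785460, GRCm39) has near-identical neighbours, and the split of reads among them is uncertain. The other 6 *H2-Q* genes tested, chosen after the values were seen, all had differences below 0, from -1.07 for *H2-Q5* to -0.18 for *H2-Q2*.

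*Sec62*, part of the machinery that moves proteins into the endoplasmic reticulum, was the 1 gene (0.00608%) whose gaps in all SI10 tumours lay apart from those in all SI20 tumours. Its gaps ran from 0.02 to 0.34 in SI10 and from -0.36 to -0.01 in SI20. The difference was small, 0.35 (SE 0.08, unadjusted p = 0.000501). *Nqo2*, a quinone reductase (difference 0.51), *Mfsd3*, a predicted transporter (1.12), and *Gm38345*, a gene model awaiting experimental support (1.63), completed the list. On the other side stood *Pi16*, a peptidase inhibitor of fibroblasts (-3.55), *Acta1*, skeletal muscle actin (-1.78), *Zfp28*, a zinc finger gene (-1.35), *Gm42715* (-0.94) and *Coro7*, a coronin of the Golgi (-0.88). *Pi16* was sparse, with a median of 9.42 in SI10 minor and 2.23 in SI10 major clones. *Acta1* had gaps between -4.07 and -0.48 in SI10 tumours, none above 0, and between -0.60 and 1.61 in SI20.

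**Figure D2:**
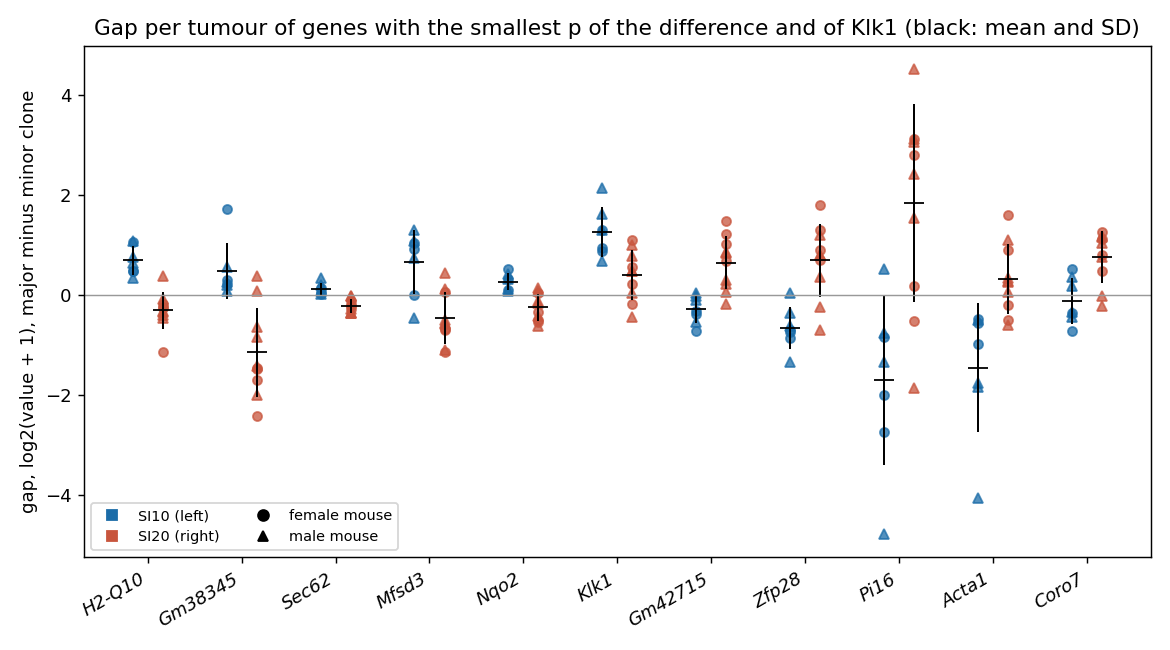
Gap per tumour (log2, major minus minor clone) for *Klk1* and for the 5 genes each way with the smallest unadjusted p of the difference, blue for SI10 and red for SI20, circles for the female and triangles for the male mouse, black lines for the mean and SD. Only *Sec62* has gaps that do not overlap between the segments, and none of these genes passed the adjusted test of the difference.

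Across all genes the gaps in both segments leaned the same way. The gap in SI10 and that in SI20 correlated at r = 0.347 (Spearman's rho 0.359) over 16436 genes, which are not independent, and 64.0% of genes had the same sign in both. The tumours of the segments are different, but both come from the same 2 mice. The spread of the gap over genes, taken as its SD in each tumour, had a mean of 0.845 (SD 0.143, n = 7) in SI10 and 0.881 (SD 0.121, n = 10) in SI20. It ran from 0.703 to 1.06 in SI10 and from 0.657 to 1.02 in SI20, and did not differ detectably (exact two-sided permutation test over 19448 arrangements, p = 0.579).

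**Figure D3:**
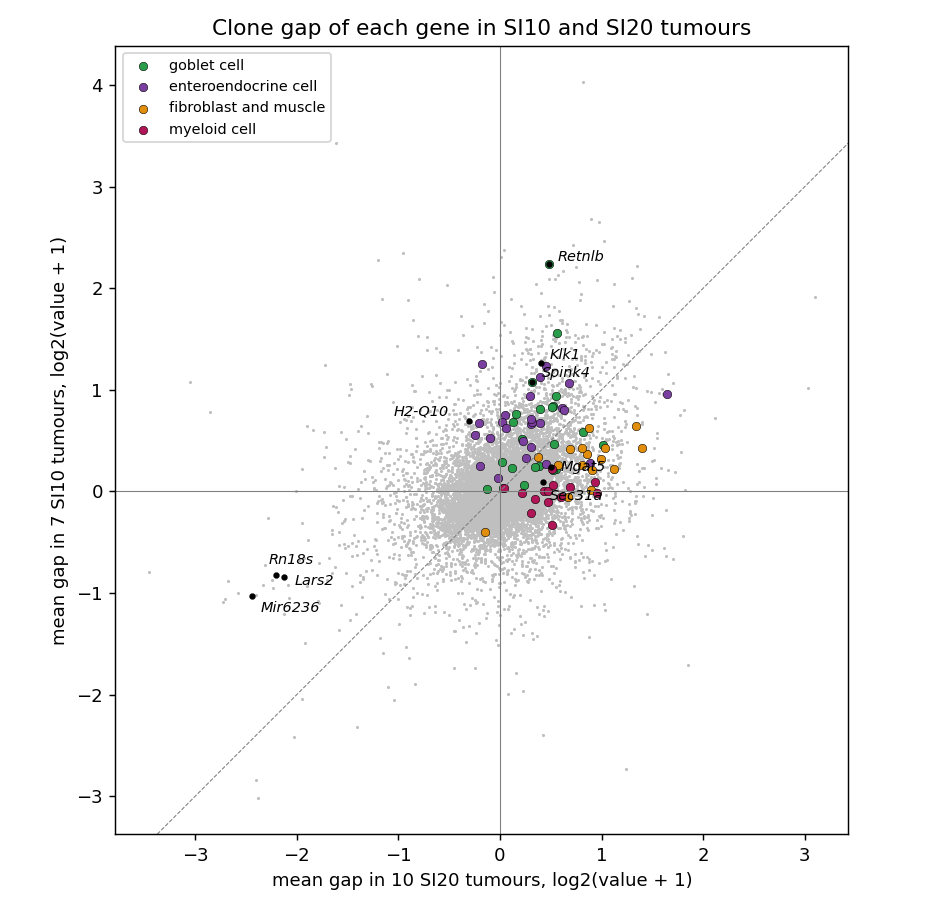
Mean gap (log2, major minus minor clone) of each gene in 10 SI20 tumours (horizontal) and 7 SI10 tumours (vertical), grey for all 16436 genes and coloured for the members of 4 lists, with the dashed line where both are equal. Goblet and enteroendocrine genes lie above 0 in SI10, fibroblast and muscle genes and myeloid genes lie mostly to the right of the dashed line, and *Rn18s*, *Lars2* and *Mir6236* lie far to the left.

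Lineage genes were described as lists, each beside the median gap over all genes, which was 0.01 in SI10 and 0.01 in SI20 with 52.3% and 51.8% of genes above 0. Of all genes tested, 3.98% were above 0 at an unadjusted p under 0.05 in SI10 and 8.88% in SI20, and 1.47% and 8.91% were below 0. For the difference these shares were 2.36% above 0 and 1.64% below 0. No member of any list passed the adjusted test in either segment or for the difference. In bulk tissue, fewer cells of a type and less RNA per cell cannot be told apart.

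Goblet cell genes, which encode the mucus and its companions, had the most uniform gap. All 22 were above 0 in SI10 and 21 of 22 in SI20, with medians of 0.49 and 0.39, and 10 and 9 of them had an unadjusted p under 0.05. The mean over the list was above 0 in 7 of 7 SI10 tumours (0.07 to 1.504) and in 9 of 10 SI20 tumours (-0.04 to 1.09). *Muc2*, the main secreted mucin, had a gap of 0.59 (SE 0.38) in SI10 and 0.81 (SE 0.32) in SI20, and *Tff3*, a trefoil peptide, 0.68 and 0.13. *Retnlb*, a resistin-like protein against bacteria, had a larger gap in SI10 (2.23, SE 0.52) than in SI20 (0.48, SE 0.44). The difference of 1.76 had an unadjusted p of 0.0190, and its levels ran from 0 to 666.5 in SI10 minor clones. *Spink4* and *Retnlb* were the 2 members with an unadjusted p under 0.05 for the difference, which had a median of 0.21 and was above 0 for 13 of 22 genes. In the female mouse alone the median difference was -0.04 and in the male mouse 0.28, so that no direction was shared by the mice.

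Enteroendocrine genes, which encode hormones and granule proteins, were above 0 for 25 of 25 members in SI10 and 19 of 25 in SI20, with medians of 0.68 and 0.31. *Chga*, chromogranin A, was at 149.5 to 1731 (median 417) in minor and 443.7 to 1490 (median 889) in major clones of SI10 tumours. Its gap was 0.82 (SE 0.34) in SI10, above 0 in 4 of 7 tumours, and 0.61 (SE 0.28) in SI20, above 0 in 8 of 10. *Chgb*, chromogranin B, had gaps of 1.07 and 0.68. The difference had a median of 0.39 and was above 0 for 22 of 25 members, with 2 at an unadjusted p under 0.05: *Reg4* (0.78, SE 0.29) and *Rfx6*, an endocrine transcription factor (1.44, SE 0.53). Its median was 0.38 in the female and 0.48 in the male mouse, and 0.09 with *Rn18s* in the model. The list mean overlapped widely between segments, at -0.24 to 2.22 over SI10 and -0.35 to 0.73 over SI20 tumours, and the highest, SI10 tumour 19 of the male mouse, stood well above the next (1.17).

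Of the secretory transcription factors 17 of 22 listed were tested, and 13 were above 0 in SI10 and 11 in SI20 (medians 0.43 and 0.13). The difference had an unadjusted p under 0.05 for 1 member each way, *Rfx6* above 0 and *Foxa1*, a forkhead factor of secretory cells, below 0. *Foxa1* had gaps of -0.08 (SE 0.14) and 0.30 (SE 0.11), with a difference of -0.38 (SE 0.18, unadjusted p = 0.0449). *Atoh1* was at 51.8 to 144.2 (median 114.6) in minor and 121.9 to 284.2 (median 166.1) in major clones of SI10 tumours, and at 106.9 to 244.1 (median 164.8) and 185.1 to 330.9 (median 244.2) in SI20. The gap was 0.78 (SE 0.21, adjusted p = 0.538) in SI10, above 0 in 5 of 7 tumours, and 0.57 (SE 0.17, adjusted p = 0.144) in SI20, above 0 in 9 of 10. A difference of its gap between the segments was not detected (0.21, SE 0.27, limma unadjusted p = 0.454), which does not show the gaps to be equal. *Neurog3*, which commits cells to the endocrine fate, was sparse, with gaps of 0.58 and 1.05.

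Paneth cell genes, mostly defensins and other antimicrobial proteins, had medians of 0.36 and 0.41, and the list mean spanned -1.05 to 1.85 over SI10 and -0.82 to 1.47 over SI20 tumours. *Lyz1*, lysozyme of Paneth cells, had a gap of 0.68 (SE 0.29) in SI10 and -0.09 (SE 0.24) in SI20, a difference of 0.77 (unadjusted p = 0.0531). *Mmp7*, which activates defensins, had gaps of -0.29 (SE 0.25) and 0.09 (SE 0.21). Defensin genes are near-identical copies, and their separate values are uncertain.

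Tuft cell genes, of which 15 of 22 were tested, were above 0 for 12 in SI10 and 5 in SI20 (medians 0.21 and -0.17). In SI20, 2 members were above 0 and 2 below 0 at an unadjusted p under 0.05. With *Rn18s* in the model the SI20 median was 0.03, with 8 of 15 above 0. The members with the smallest p of the difference were *Rgs13*, *Bmx* and *Sh2d6*, all marker genes of tuft cells. They had gaps of 0.20, 0.29 and 0.61 in SI10 and of -0.96, -0.90 and -0.42 in SI20. Their differences of 1.16, 1.19 and 1.03 had unadjusted p-values of 0.0280, 0.0204 and 0.0222. With *Rn18s* in the model, 0 of 15 members were above 0 and 1 below 0 for the difference at an unadjusted p under 0.05. The median difference of the list was 0.34, with 0.25 in the female and 0.51 in the male mouse, while the SI10 median was -0.04 in the female and 0.46 in the male. *Dclk1*, a tuft cell kinase, had gaps of 0.38 (SE 0.37) and -0.20 (SE 0.31), well within its spread.

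Enterocyte genes, which encode digestive enzymes and transporters, were above 0 for 28 of 30 members in SI10 and 30 of 30 in SI20 (medians 0.37 and 0.47). At an unadjusted p under 0.05, 4 of 30 were above 0 in SI10 and 16 of 30 in SI20, beside 3.98% and 8.88% of all genes. None had such a p for the difference. *Alpi*, alkaline phosphatase of the brush border, had gaps of 0.39 and 0.43, and *Vil1*, villin, 0.16 and 0.43. The median difference changed sign with the mouse, at -0.44 in the female and 0.15 in the male. Genes listed as proximal had medians of 0.39 and 0.47 and those listed as distal 0.31 and 0.21. Here too the direction turned with the mouse: the median difference was -0.53 in the female and 0.35 in the male for proximal genes, and -0.23 and 0.38 for distal genes, whose SI10 median was -0.02 in the female. *Cybrd1*, a duodenal iron reductase, had gaps of 0.34 and 1.18.

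Stem cell, WNT and replication genes had lower median gaps in SI10 than in SI20. Of 21 WNT targets and antagonists 5 were above 0 in SI10 and 15 in SI20 (medians -0.23 and 0.12), and the difference was above 0 for 1 of 21, with a median of -0.24. It was below 0 in each mouse alone (-0.15 in the female and -0.47 in the male) and under all 34 alternatives, yet 1 member had an unadjusted p under 0.05. That was *Axin2*, a feedback inhibitor of the pathway, at 3440 to 5969 (median 4470) in minor and 2418 to 5135 (median 3773) in major clones of SI10 tumours. Its gap was -0.29 (SE 0.12) in SI10, above 0 in 1 of 7 tumours, and 0.12 (SE 0.10) in SI20, above 0 in 7 of 10, a difference of -0.41 (unadjusted p = 0.0218). *Notum*, a secreted WNT antagonist, had gaps of -0.28 (SE 0.27) and -0.08 (SE 0.22), and *Nkd1*, another feedback inhibitor, -0.12 and -0.08.

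The crypt stem cell list, which shares *Lgr5*, *Axin2* and other genes with the WNT list, had medians of -0.12 and 0.17. *Lgr5* had a gap of -0.23 (SE 0.25) in SI10 and 0.22 (SE 0.21) in SI20, with a difference of -0.45 (unadjusted p = 0.191). *Olfm4*, a crypt base marker, was uneven, with SI10 gaps from -1.50 to 9.99. *Msi1*, an RNA-binding protein of crypt cells, had gaps of -0.69 and 0.07 (difference -0.75, unadjusted p = 0.0304), but its mean SI10 gap was 0.17 in the female and -1.33 in the male mouse. *Cdk6*, a kinase of the G1 phase, had gaps of -0.19 and 0.39 (difference -0.58, unadjusted p = 0.0389). *Igfbp4*, a binding protein of insulin-like growth factors, had gaps of 0.26 (SE 0.17) and -0.24 (SE 0.14), a difference above 0 (0.50, unadjusted p = 0.0375). The median difference of the list was likewise 0.18 in the female and -0.44 in the male mouse.

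Replication and mitosis genes had medians of -0.01 in SI10 and 0.18 in SI20, and the difference was above 0 for 2 of 30 genes, with none at an unadjusted p under 0.05. The median difference was 0.26 in the female and -0.41 in the male mouse. With *Rn18s* in the model it was -0.01, with 14 of 30 above 0, and the SI20 median was -0.09. *Mki67*, the proliferation antigen Ki-67, had gaps of -0.09 (SE 0.33) and 0.41 (SE 0.28). *Cdk4*, a kinase of the G1 phase, was lower in the major clone of 6 of 7 SI10 and 9 of 10 SI20 tumours, by a like amount (gaps -0.24 and -0.21). *Hdac2*, a histone deacetylase, had gaps of -0.03 (SE 0.10) in SI10 and -0.27 (SE 0.09) in SI20, below 0 in 4 of 7 and 9 of 10 tumours, with a difference of 0.24 (SE 0.13, unadjusted p = 0.0864).

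**Figure D4:**
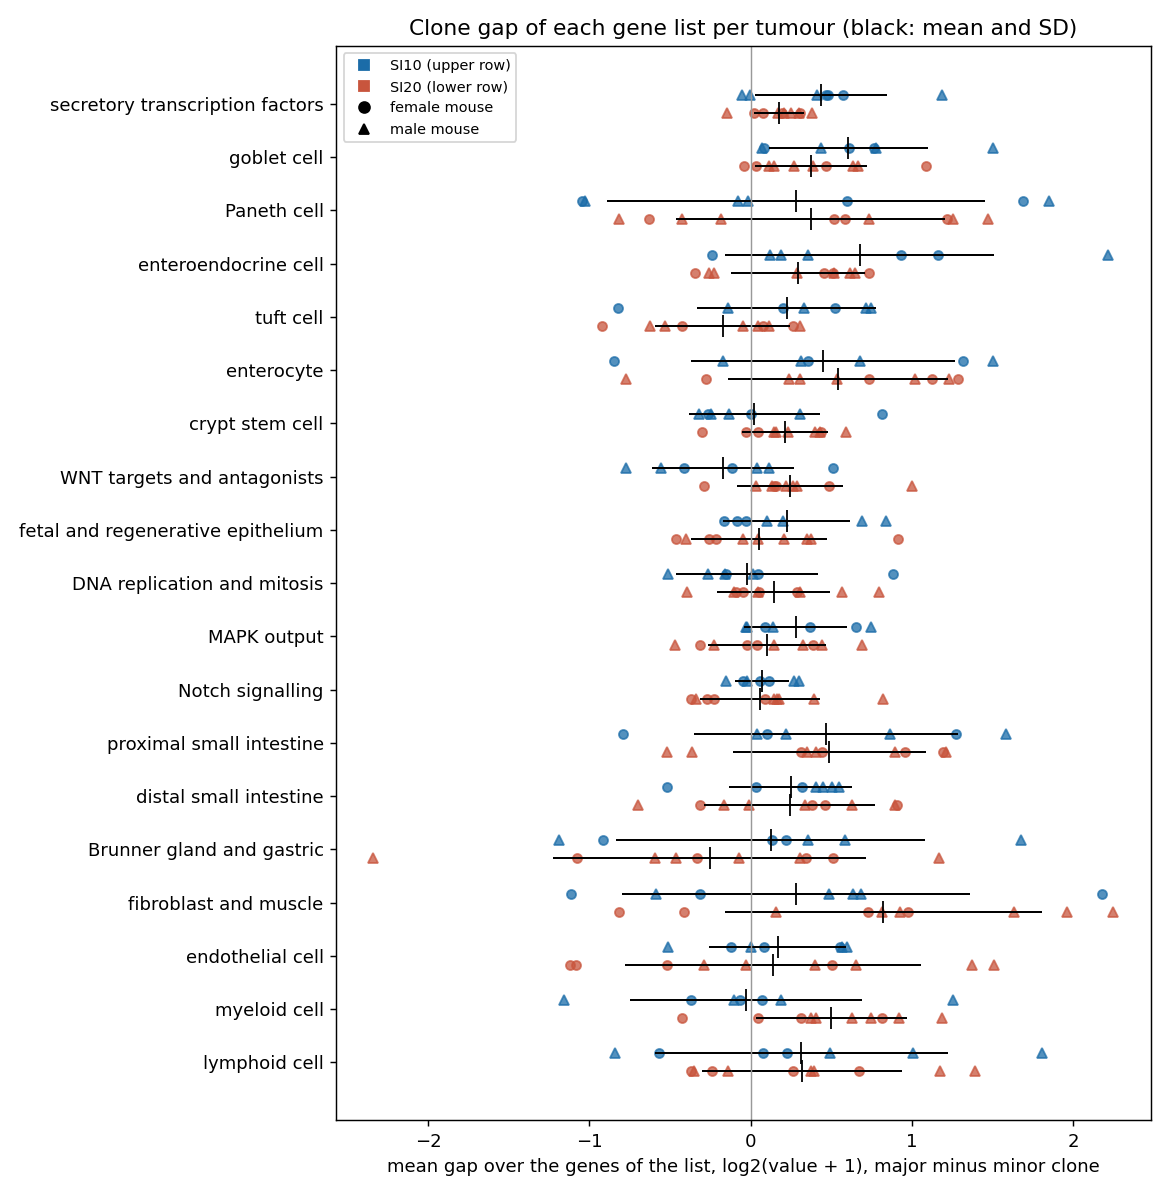
Mean gap over the genes of each of 19 lists (log2, major minus minor clone) in each tumour, blue upper rows for SI10 and red lower rows for SI20, circles for the female and triangles for the male mouse, black lines for the mean and SD over tumours. The rows overlap in every list, and goblet cell genes lie above 0 in 16 of 17 tumours.

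Notch signalling genes had medians of 0.05 and 0.12, the latter -0.16 in the female and 0.25 in the male mouse. *Hey1*, a target of Notch, was the 1 member with an unadjusted p under 0.05 for the difference (1.22, SE 0.35, p = 0.00231). Its levels in SI20 tumours were 429 to 1205 (median 705) in minor and 238 to 593 (median 446) in major clones, lower in the major clone of 10 of 10. In SI10 the gap was 0.48 (SE 0.27), above 0 in 3 of 7 tumours. The mean SI20 gap was -0.70 in the female and -0.77 in the male mouse.

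MAPK output genes had medians of 0.24 and 0.09, with 19 of 20 above 0 in SI10 and 12 of 20 in SI20, and fetal and regenerative genes 0.19 and 0.13. The MAPK median in SI20 was -0.005 in the female and 0.10 in the male mouse, and -0.07 with *Rn18s* in the model. For the fetal and regenerative list the SI10 median was -0.14 in the female and 0.43 in the male mouse, the median difference -0.22 and 0.41, and the SI20 median -0.19 with *Rn18s* in the model. *Spry1*, a feedback inhibitor of receptor signalling, had gaps of 0.08 and -0.39 (difference 0.47, unadjusted p = 0.0415), and *Fosl1*, an AP-1 factor, 0.77 and 0.15. *Anxa1*, annexin A1, had gaps of 0.10 and -0.02 (difference 0.11, SE 0.19). Brunner gland and gastric genes had medians of 0.29 (-0.19 in the female and 0.52 in the male mouse) and -0.10, and their list mean spanned -1.19 to 1.68 over SI10 and -2.34 to 1.17 over SI20 tumours. Of 12 pancreas genes 1 was tested, *Cela1*, with gaps of -0.06 and -0.19.

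Lists of other cell types are given beside these values, and their part in the gaps of epithelial genes was tested only as a covariate. Fibroblast and muscle genes had a median gap of 0.33 in SI10 and 0.87 in SI20, with 14 and 15 of 16 above 0 and 0 and 13 at an unadjusted p under 0.05. The difference was below 0 for all 16, with a median of -0.58. It was 0.11 in the female and -0.93 in the male mouse, and 0.14 with *Rn18s* in the model. *Vim*, vimentin, was the 1 member with an unadjusted p under 0.05 (gaps 0.02 and 0.90, difference -0.88, p = 0.0177). Their summed level was 3652 to 24218 in minor and 3715 to 41761 in major clones of SI10 tumours, and 4587 to 43478 in minor and 9348 to 25810 in major clones of SI20 tumours. None of the 16 was at 0 in any of the 34 libraries.

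Myeloid genes had medians of -0.01 in SI10 and 0.49 in SI20, with 7 and 14 of 14 above 0, and the difference was below 0 for all 14 (median -0.49, -0.24 in the female and -0.67 in the male mouse). *C1qc*, a complement gene of macrophages, had gaps of -0.06 (SE 0.23) and 0.60 (SE 0.19), with a difference of -0.66 (unadjusted p = 0.0386). *S100a9*, a neutrophil protein, was higher in the major clone of 10 of 10 SI20 and 2 of 7 SI10 tumours. The summed level of the list was 2261 to 12800 in minor and 3116 to 10822 in major clones of SI10 tumours, and 2560 to 5125 and 3574 to 7712 in SI20. No myeloid gene was at 0 in any library either. Lymphoid genes had medians of 0.06 and 0.31 and endothelial genes 0.20 and -0.06. The lymphoid SI10 median was -0.17 in the female and 0.22 in the male mouse, and the endothelial SI20 median -0.44 and 0.33, with an endothelial difference of 0.61 and -0.32. With the mean of the fibroblast and muscle list in the model, the median gaps of goblet cell genes were 0.48 in SI10 and 0.42 in SI20, those of enteroendocrine genes 0.72 and 0.40, and *Klk1* still rose in SI10 (1.27, adjusted p = 0.0292). No gene then passed in SI20, where 10 had before, with the *Sec31a* gap at 0.40 (adjusted p = 0.276). The fibroblast and muscle list was itself mostly higher in SI20 major clones, so this covariate too partly overlaps with the clone term.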

How the data were processed

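Bulk RNA from microdissected clones was sequenced from stranded poly(A) libraries. The authors deposited a normalised signal for each gene, made from Salmon 1.9.0 estimates of reads trimmed with Trimmomatic 0.39 (GRCm39). Their scaling between libraries is not stated in detail, and values are not whole numbers. The 2 clones of a tumour share the tumour number of the title, which is where the pairing comes from. With class means removed, their deviations had a median correlation of 0.274 within tumours (lowest -0.0542, highest 0.585, 15 of 17 over 0.1) and -0.0446 between tumours.

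A gene was tested if its mean in the 34 libraries reached 10 (16436 of 24766, 678 of the latter without a symbol). The test ran on log2(value + 1) using limma 3.58.1 (eBayes with trend, R 4.3.3). Tumour was a block, with a clone term per segment, and p-values were adjusted by Benjamini-Hochberg with a threshold of 0.05. Gaps of a gene understate the change where levels are near the pseudocount of 1. Single values per tumour were compared by exact permutation of the segment labels. The libraries of a segment come from 2 mice, so p-values measure the spread between tumours. Reads per library were estimated from the peak of the low values (density bandwidth 0.05, log2 up to 4).

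The tumours, the 20 lists and the rule for named genes were chosen with earlier results of these data known. Named were the study's own genes (*Atoh1*, *Chga*, *Hdac2*, *Cdk4*, *Lgr5*, *Anxa1*, *Notum*, *Lyz1*, *Mki67*), up to 5 called genes each way per segment with the same sign in at least 6 of 7 or 8 of 10 tumours, the 5 each way with the smallest p of the difference, and of each list the first 2 genes and the 3 with the smallest p of the difference. Other list members, the remaining called genes, *Hpd* and the *H2-Q* genes were added after their values were seen. Positions are from Gencode M39 on GRCm39. Alternatives covered the pseudocount, the filter, the scaling, the block, the mouse, the variance trend, the tumours included and covariates. Figures used Python 3.11.15 and matplotlib 3.10.9. Undivided tumours were not used here, and 1 gene that the rule named is not reported here.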

Additional observations from a re-analysis of the deposited data

Results flagged for a closer look

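A tumour far from the others of its segment was found in 13 of 254 sets of gaps tested (5.12%, where chance flags about 1 in 20). In SI10 tumours these were the gaps of *Mir6236* (-3.14 in tumour 22 of the male mouse, next -1.13), *Gm12895* (0.91 in tumour 19 of the female mouse, next -0.62), *Gm38345* (1.73 in the same tumour, next 0.56), *Acta1* (-4.07 in tumour 20 of the male mouse, next -1.84), *Notch1* (-1.63 in tumour 19 of the male mouse, next -0.25), *Numb* (0.72 in tumour 20 of the male mouse, next 0.05), *Tyrobp* (0.64 in tumour 19 of the male mouse, next -0.17) and *Mzb1* (6.04 in tumour 22 of the male mouse, next 1.36). The mean gap of the replication and mitosis list was 0.89 in SI10 tumour 23 of the female mouse, with the next at 0.04.

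In SI20 tumours these were the gaps of *Lgr5* (1.82 in tumour 29 of the male mouse, next 0.56), *Ly6a* (2.97 in tumour 28 of the male mouse, next 1.20) and *Tyrobp* (1.67 in tumour 26 of the male mouse, next 0.57). The gap in estimated reads was -1.56 in tumour 28 of the female mouse, where the next was -0.34.

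*Sec62* had gaps above 0 in 7 of 7 SI10 and below 0 in 10 of 10 SI20 tumours. Its difference of 0.35 did not pass the test across genes (limma, adjusted p = 0.996).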

How the results depend on the processing

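Without the replicate block, that is, without the pairing of clones within tumours, 0 genes passed in SI10 and 0 in SI20 (399 and 1537 at an unadjusted p under 0.05). For the difference 0 genes passed under any of the 34 alternatives. In SI10, 2 genes passed after quantile normalization and under either scaling to equal library sums, *Rn18s* included or not, 4 with the SI30 tumours added to SI20, 5 with female tumour 22 added to SI10, and 0 in the female or the male mouse alone, with the segment fitted alone, or with *Rn18s* in the model. In SI20, 16 passed after scaling to equal sums, 6 with a clone by mouse term, 90 with female tumour 22 added to SI20 (56 higher, 34 lower), 1 with the segment fitted alone, 9 in the male mouse alone, and 0 in the female mouse alone or with either covariate. Covariates were added after the data were seen, and both partly overlap with the clone term in SI20. With *Rn18s* in the model the *Lars2* gap in SI20 was 0.0222.

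Leaving out 1 tumour at a time gave 0 to 5 genes in SI10 and 4 to 55 in SI20, the highest without SI10 tumour 23 of the male and SI20 tumour 27 of the female mouse. *Klk1* passed in 26 of 35 alternatives. *Sec31a* passed in 29 of 35 and *Mgat5* in 28 of 35, and both passed without any one tumour. SI20 counts were also 4 without tumour 24 or 26 of the female, 5 without tumour 29 and 6 without tumour 25 of the male mouse, whereas omitting SI10 tumour 22 of the male gave 24. The *Rn18s* difference ran from 1.102 to 1.79 when 1 tumour was left out. Of 11018 values of named genes that had not passed, 288 changed sign. The causes were not tested. The median standard error of a gene's gap was 0.18 in SI10 and 0.15 in SI20, which covers counting error and the spread between tumours together.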
